A study of Malus domestica with 12 samples.

Results

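EXGT is an apple gene annotated as an endoxyloglucan transferase, an older name for a xyloglucan endotransglucosylase/hydrolase (XTH). It was followed here through 1 of the 133709 probes of the AryANE_v2 apple array other than controls, the probe AryANE_v1_00045602, which reports the transcript MDP0000398765 of the gene MD16G1145200. The probe was taken by its name, without regard to its values, but the study had picked the gene for RT-qPCR among those that differed on these same arrays. Its direction here is therefore not independent of that choice. The RT-qPCR values are not used here.

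Xyloglucan is the polysaccharide that coats and tethers cellulose microfibrils in the primary cell wall of plants such as apple. XTH enzymes cut a xyloglucan chain and join the new end to another chain, or in some members to water, which remodels the wall during growth without dissolving it. The family is large, is transcribed differently from member to member, and is studied in fruit for its part in expansion and softening. Superficial scald is a browning of the peel that appears on susceptible apples after long cold storage.

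The study asked which transcripts of the peel at harvest differ between fruit that later show little or much scald. All samples were peel of wild-type Granny Smith apples, each from 20 fruit, taken at harvest at an early stage of maturity and before any storage. Samples are named by harvest year and plot as in the labels. Low scald was represented by 2 samples, 2014-P24 and 2014-P36, and high scald by 3, which are 2015-P24, 2015-P31 and 2017-P31b. The study's methods name the plot of the 2017 sample R11. Their account of sampling places P31 in 2014 and P36 in 2015, while their account of the arrays has these the other way, as the labels do. Every low scald sample came from 2014 and every high scald sample from 2015 or 2017, so scald class and harvest year cannot be told apart.

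RNA was hybridised in 3 comparisons, each on 2 two-colour arrays with the dyes Cy3 and Cy5 swapped. The first, C1, paired 2015-P24 with 2014-P24. The second, C2, paired 2015-P31 with 2014-P36. The third, C3, paired 2017-P31b with the 2014-P24 sample already used. Plot thus differed along with year and scald class in C2 and C3, and only C1 kept it the same. C1 and C3 lay on one slide and C2 on another. The 2 arrays of a comparison hold the same RNA samples and are technical repeats. A probe was taken as well above background if it exceeded the local background by over 2.6 SDs of its pixels. This share of probes ranged over the channels from 11.0% to 30.9%, and the lowest shares were 11.0% and 13.3% in the Cy5 channels of C2. The label of peel could not be checked, as no marker of peel was at hand. The only tissue marker was the green tissue gene LHCB3, well above background in 12 of 12 channels. It does not tell peel from other green tissue. In a bulk sample, fewer cells of a type and less RNA per cell cannot be told apart.

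EXGT gave a strong signal in every peel sample. Its spot was well above background in 12 of 12 channels, and in none was it saturated or marked as an outlier. The mean spot intensity ran from 5007 to 13375 in the 6 Cy3 channels, or 219 to 637 times the local background. In the 6 Cy5 channels it ran from 2620 to 31930, or 34.5 to 389 times the background. The lowest multiples, 34.5 in 2014-P36 and 47.4 in 2015-P31, came from the Cy5 side of C2, where the fewest probes were detected.

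The probe for the opposite strand of the same transcript, AryANE_v1_00108613, was well above background in 0 of 12 channels. Its intensity exceeded the 95th percentile of the 600 negative control spots in 3 of 12 channels, and the intensities were 0.934 to 1.25 times the local background. Antisense RNA of EXGT was thus not detectable at this sensitivity, which does not show that it was absent.

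Before normalisation, the EXGT ratio of high over low scald followed the array more than the scald class. The log2 ratio of raw intensities was -0.70 and 2.66 on the arrays of C1 with the high scald sample in Cy3 and in Cy5. It was 2.35 and -0.81 in the same order for C2. It was -1.01 and 0.86 for C3. The sign thus turned with the dye in all 3 comparisons, with Cy5 the brighter dye for this probe on the 4 arrays of C1 and C3 and Cy3 the brighter dye on those of C2. Background correction with normexp changed the ratios by little, and the loess curve fitted on each array then moved them by -2.26 to 2.11.

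After loess, the ratio was above 0 on 6 of 6 arrays. In C1, where the 2014 and 2015 fruit came from the same plot, the log2 ratio was 0.62 with the high scald sample in Cy3 and 0.40 with it in Cy5. In C2 it was 0.73 and 1.28. In C3 it was 0.49 and 0.08, the last being an array on which EXGT was nearly equal in both samples. Of all 133246 probes measured on 6 arrays, 2.15% had a ratio above 0 on 6 of 6, and of the 13592 of them that were well above background in 12 channels, 5.25% did. The antisense probe gave ratios of -0.03 to 0.11 under the same normalisation. Pooled over the 6 arrays, the shift of Cy5 over Cy3 left in the EXGT ratios after loess was -0.01 (SE 0.15) on the log2 scale. Opposite shifts cancel in this value. With the high scald sample in Cy5 the ratio was the lower of the pair in C1 and C3 and the higher in C2.

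**Figure D1:**
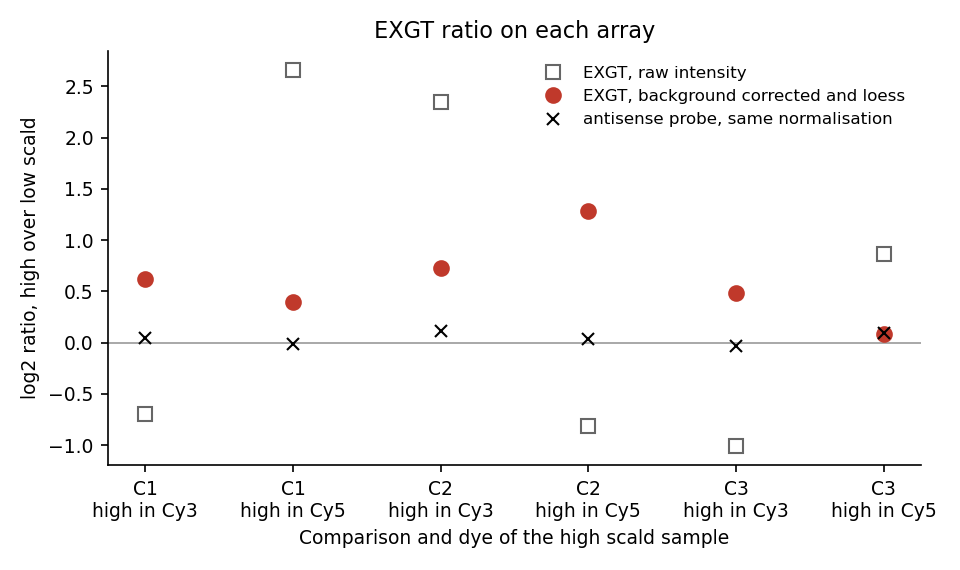
EXGT log2 ratio of high over low scald (vertical axis) on each of the 6 arrays, named by comparison and by the dye of the high scald sample. Open squares are raw intensities, which turn sign with the dye, filled circles are the ratios after background correction and loess, which lie between 0.08 and 1.28, and crosses are the antisense probe, which lies between -0.03 and 0.11.

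Averaged over the 2 arrays of each comparison, EXGT was 1.42-fold higher in 2015-P24 than in 2014-P24 (log2 ratio 0.51, SE 0.16, 95% interval 0.12 to 0.90). It was 2.01-fold higher in 2015-P31 than in 2014-P36 (1.00, SE 0.16, interval 0.61 to 1.40). It was 1.22-fold higher in 2017-P31b than in 2014-P24, with an interval that included 0 (0.29, SE 0.16, interval -0.11 to 0.68). Within each comparison none of these passed limma's moderated test after Benjamini-Hochberg adjustment over all probes. For C1 the adjusted p was 0.373, with 1.3% of all probes called. For C2 it was 0.0571, with 1.43% called, and for C3 it was 0.730, with 2.6% called. These SEs, intervals and p-values are limma's moderated ones. They rest on technical repeats of 1 pair of RNA samples each and measure the spread between arrays, not between fruit lots. With median centring of each array in place of loess, the ratio was 0.90 for C1 and -0.068 for C3. In C2 the 2 arrays lay 0.56 apart on the log2 scale, against 0.22 in C1 and 0.40 in C3. In the log2 values deposited by the authors, the C2 ratios were 0.24 with the high scald sample in Cy3 and 1.96 with it in Cy5. They were 0.46 and 0.62 for C1 and 0.28 and 0.22 for C3 in the same order.

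Across the 3 comparisons the mean EXGT log2 ratio was 0.60 (SD 0.37, SE 0.16, 95% interval 0.14 to 1.06, n = 3 comparisons), a 1.52-fold higher value in high scald peel (interval 1.10 to 2.09). All 3 comparisons had a ratio above 0, and 6 of 6 arrays did. With limma's moderated test the unadjusted p was 0.0241 and the adjusted p was 0.867, so EXGT was not called. Only 1 of 133709 probes was called (0.000748%) in this fit, and 5.31% of the probes had an unadjusted p under 0.05. With the 6 arrays as separate ratios, 0.323% of the probes were called and EXGT was not (adjusted p 0.241). C1 and C3 share 2014-P24, so the 3 ratios are not fully independent. Without C2 the mean was 0.40 (adjusted p 0.467), which is also the value within the slide that held C1 and C3. C2, which has the highest ratio, is also the comparison on the other slide with the fewest detected probes in Cy5, and the part of either in its ratio was not tested.

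The mean ratio of EXGT was high among probes although it was not called. Of all probes, 379 (0.283%) had a higher mean ratio, and of the 13592 that were well above background in 12 channels, 238 (1.75%) did. Its spread over the comparisons was also wide, with an SD of 0.37 against a median of 0.24 over those 13592 probes, of which 28.3% had a larger SD. By p-value it therefore stood lower, since 10.3% of the same probes had a smaller p.

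The size of the EXGT ratio was compared between comparisons in the fit over 6 arrays. C2 exceeded C1 by 0.50 on the log2 scale (SE 0.22, 95% interval -0.06 to 1.05, unadjusted p 0.0711, with 0.771% of all probes called in this contrast). C3 lay below C1, with a difference of -0.22 (SE 0.22, interval -0.78 to 0.33, p 0.359, with 0.425% called). C3 lay below C2, with a difference of -0.72 (SE 0.22, interval -1.27 to -0.16, p 0.0198). The limma p of this last difference was 0.0593 after adjustment over the 3 differences and 0.256 over all probes, a contrast in which 2.84% of all probes were called. No difference between comparisons was thus larger than the spread between arrays by this criterion, and the intervals still allow a log2 ratio in C2 that exceeds that in C3 by more than 1. The direction of the first difference turned under median centring without loess, where C2 minus C1 was -0.11, and C3 minus C1 was -0.96 there.

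Levels in single peel samples were read channel by channel after loess followed by Aquantile scaling, which sets the arrays to the same distribution of mean log2 intensity. In 2014-P24 the 4 channels gave 12.36, 12.48, 12.38 and 12.37 (mean 12.40 ± 0.05, SD). In 2017-P31b the 2 channels gave 12.47 and 12.85 (12.66 ± 0.27). In 2015-P24 they gave 12.98 and 12.87 (12.93 ± 0.07). These 3 samples were hybridised on the same slide, and both high scald means lay above the low scald one, although the lower channel of 2017-P31b fell within the range of 2014-P24.

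On the other slide, 2014-P36 gave 13.18 and 12.78 (12.98 ± 0.29, SD, n = 2 channels). In 2015-P31 the channels gave 13.91 and 14.06 (13.98 ± 0.11), the highest EXGT levels of the series under this scaling and clear of every other channel. The order of the means was thus 2014-P24, 2017-P31b, 2015-P24, 2014-P36 and 2015-P31. Of the neighbours in this order, 2014-P24 and 2017-P31b overlapped in their channels, as did 2015-P24 and 2014-P36. The step from 2017-P31b to 2015-P24 was 0.27, no larger than the SD of 2017-P31b, and only the step of 1.00 up to 2015-P31 exceeded the SDs on both sides. The SDs are those of repeated hybridisations and hold no spread between fruit lots.

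**Figure D2:**
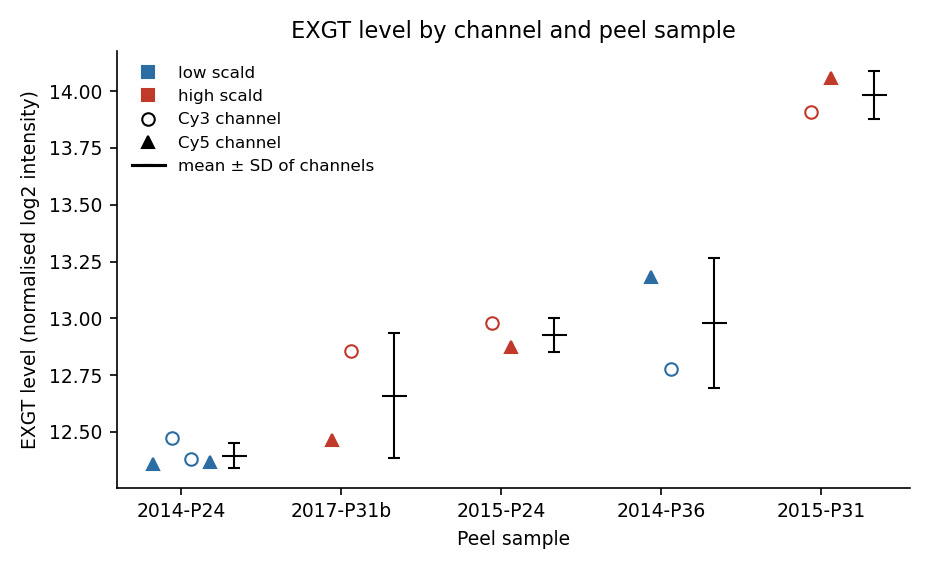
EXGT level as normalised log2 intensity (vertical axis) in each channel of the 5 peel samples, ordered by their means, with low scald in blue and high scald in red, open circles for Cy3 and triangles for Cy5. Bars are the mean ± SD of 2 or 4 channels, and 2015-P31 stands above the others while the low scald sample 2014-P36 lies level with 2015-P24.

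Low and high scald samples overlapped in their levels. The 6 low scald channels ran from 12.36 to 13.18 with a median of 12.43, and the 6 high scald channels from 12.47 to 14.06 with a median of 12.93. Over samples, the high scald mean was 13.19 and the low scald mean 12.69, and the high scald sample was the higher of the pair in 4 of the 6 possible pairs. The difference of 0.50 had a two-sided exact permutation p of 0.6 over 10 splits of 3 against 2 samples, where the smallest p that can be had is 0.1. The comparisons within arrays set 2014-P36 only against 2015-P31, and its level against the samples of the other slide rests on the scaling.

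The order of the 5 levels changed with that scaling. With median centring of each array in place of loess and Aquantile, and with the deposited log2 table, 2015-P24 was the highest sample and 2014-P36 the lowest. The sample 2014-P24, which was hybridised in both C1 and C3, gives a check on levels across arrays. Its mean level was 12.42 in C1 and 12.37 in C3 with Aquantile, a difference of 0.04, against a difference of 0.16 with median centring and 0.50 in the deposited table. In each of these settings 2015-P24 lay above the 2 other samples of its slide, while the order of 2014-P24 and 2017-P31b turned under median centring.

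Other genes of the XTH family had ratios on the other side of 0. The annotation at hand names 4 of them, and all come from the study's own table of transcripts that differed on these arrays, of which almost only the part with lower values in high scald was at hand, so their direction was set by that choice. MERI5B (MD17G1140000), named after the meristem and annotated as an XTH, had a mean log2 ratio of -1.11 (SD 0.46, n = 3), from -1.62 in C1 to -0.72 in C2. XTH16 (MD09G1152600) had -0.95 (SD 0.47), and XTR7, of transcript MDP0000281777, had -0.83 (SD 0.38). XTH32 (MD04G1091200) had -0.50 (SD 0.11).

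Each of these 4 genes was below 0 on 6 of 6 arrays, as were 2.35% of all 133246 probes measured on 6 arrays. None was detected throughout, as MERI5B, XTH16 and XTR7 were well above background in 11 of 12 channels and XTH32 in 8 of 12. None of the 4 was called, beside 1 of all 133709 probes, with limma adjusted p from 0.545 to 0.785. Their median was -0.89, beside -0.0002 over all probes. By comparison, their median ran from -1.22 for C1 through -0.84 for C2 to -0.46 for C3. The difference between EXGT and these genes was not tested, since the latter were selected for their lower values.

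**Figure D3:**
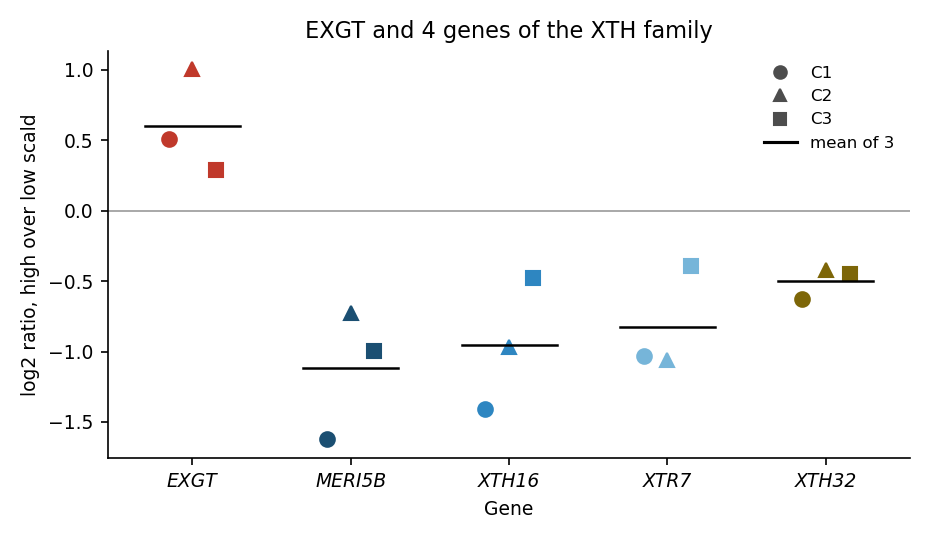
Log2 ratio of high over low scald (vertical axis) in C1, C2 and C3 for EXGT and 4 XTH family genes, each point the mean of 2 dye-swapped arrays and each bar the mean of 3 comparisons. EXGT lies between 0.29 and 1.00, and the 4 other genes, which the study had chosen on these arrays, lie below 0 in every comparison.

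Genes for the rest of the wall came from the same table and carry the same limit. The 11 probes comprised a pectin methylesterase, an inhibitor of such enzymes, 3 beta-galactosidases, a COBRA-like protein, AXY4, 3 arabinogalactan proteins and an expansin-related protein. All 11 had a mean ratio below 0, as did 67147 of all 133709 probes. The 11 ran from -0.91 to -0.24, with a median of -0.52. None of the 11 was called (limma adjusted p 0.483 to 0.929), beside 1 of all 133709 probes. The value of -0.24 belongs to PME7, a pectin methylesterase that was well above background in 0 of 12 channels, so its direction was not measured, and the 10 others ran from -0.91 to -0.32. AXY4 (MD13G1087900), which in Arabidopsis adds acetyl groups to xyloglucan, the substrate of XTH enzymes, had a log2 ratio of -0.42 (SD 0.13). An AGP16 probe (MD07G1144900), for an arabinogalactan protein of the cell surface, had -0.91 (SD 0.45), and PMEI (MD07G1255400), an inhibitor of pectin methylesterases, had -0.90 (SD 0.46). A BGAL3 probe (MD02G1137500), for a beta-galactosidase, an enzyme that removes galactose from wall polymers, had -0.61 (SD 0.37). LHCB3, a light-harvesting protein of chloroplasts, had -0.61 (SD 0.42), from -1.04 in C3 to -0.19 in C2. It was not called either (limma adjusted p 0.909), and its direction carries the same limit as that of the wall genes. The part of green tissue in the EXGT ratio was not tested.

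The probes most like EXGT were sought by the root mean square difference of their log2 ratios from those of EXGT over the 6 arrays, among 13591 other probes measured on all arrays and well above background in 12 channels. The nearest was that of transcript MDP0000323622 at 0.167, with a mean ratio of 0.62 for C1, 0.96 for C2 and 0.08 for C3. The next was that of MDP0000323987 at 0.191, with 0.40, 1.04 and 0.52. The 5 nearest lay within 0.220, against a median of 0.763 over all 13591 probes. None of the 5 was called (limma adjusted p 0.817 to 0.960), beside 1 of all 133709 probes, and likeness to EXGT is what the 5 were chosen for. The 6 arrays share slides and dyes as well as samples.

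**Figure D4:**
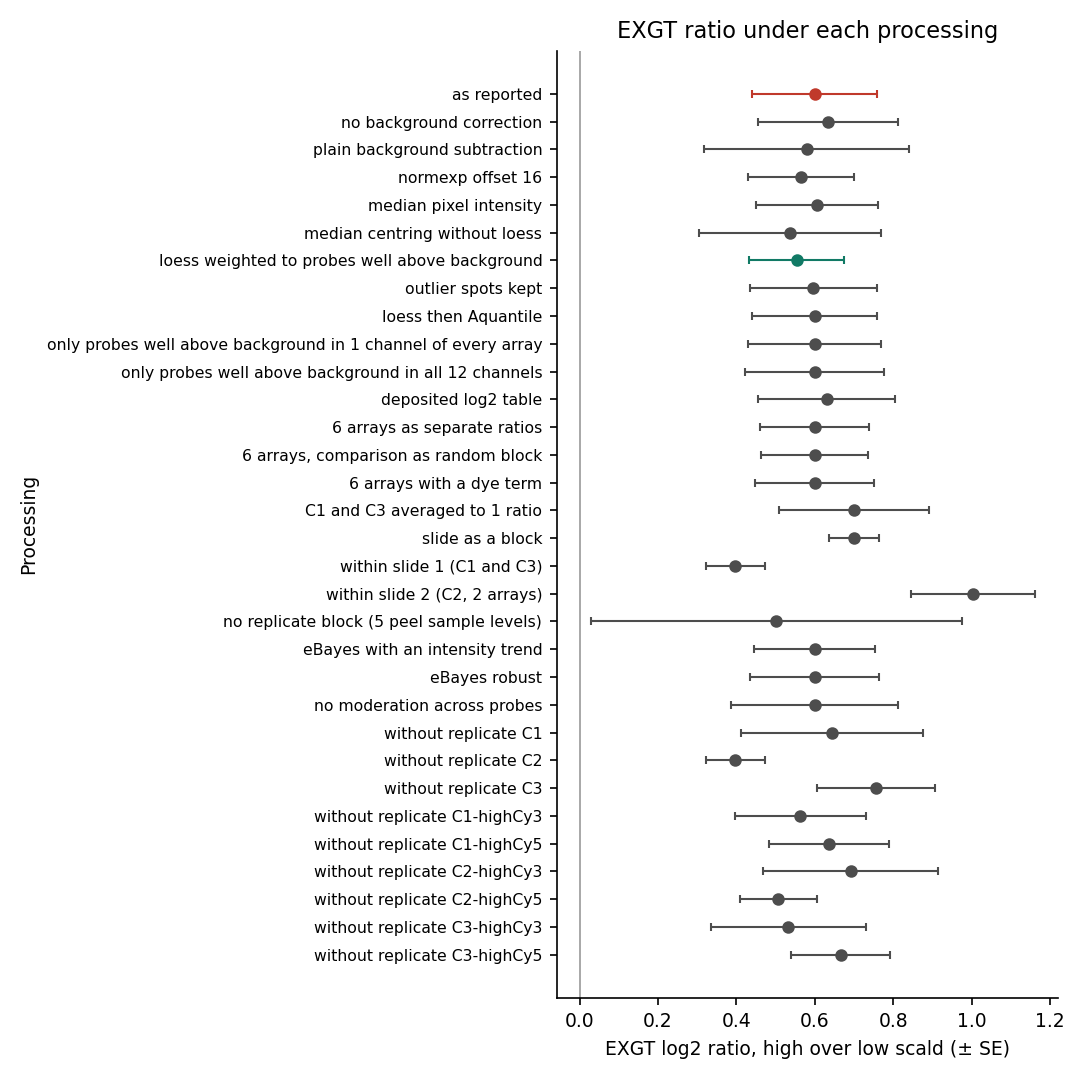
Mean EXGT log2 ratio of high over low scald (horizontal axis, ± SE) as reported, in red, and under 31 other ways of processing the same arrays. All lie above 0, between 0.40 and 1.00, although Aquantile scaling, the filters, the fits on 6 arrays and the variance models could not move the mean. Those that left out, averaged, split or blocked arrays could not turn its sign. The one in green, with loess weighted to probes well above background, is the one that passed an adjusted p of 0.05. Its fit gave all probes the same variance.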

How the data were processed

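For each of the 12 channels the authors deposited spot and local background intensity on a linear scale from Agilent Feature Extraction. The intensity named as processed there equals the mean pixel intensity without background subtraction. The authors also deposited log2 values after their lowess, with column medians of 5.45 to 5.63, used as an alternative. Whether repeated spots were averaged in them is not known.

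Intensities were corrected with normexp (offset 50) and loess (span 0.3, 4 iterations, control and outlier spots at weight 0) in limma 3.58.1 under R 4.3.3. Each ratio was taken as high over low scald, and dye-swapped arrays were averaged to 3 ratios for lmFit and eBayes (1.59 prior degrees of freedom). Benjamini-Hochberg adjustment ran over 133709 probes at 0.05. Pairing comes from the hybridisation of 2 samples on an array. The number of peel samples limits the precision. In the fit on 3 ratios the p-value rests on the spread between comparisons, of which C1 and C3 share a low scald sample. No label says that replicates of a sample came from separate RNA, so p-values within and between comparisons may measure technical spread only. Calculations were tested on simulated data. Figures used matplotlib 3.10.9 under Python 3.11.15.

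The genes named were EXGT, its antisense probe, up to 8 wall genes with values (the annotated XTH family, then the largest ratio in size of each group), LHCB3 as a tissue marker, and the 5 probes nearest to EXGT, of which 2 are named because the files pair no gene names with them. These genes and lists were chosen with earlier results of these data known. No sequence or coordinate of the probe is given. Alternatives changed the background, normalisation, filter, source, replicate structure and variance model. Those that left out an array from the values of single comparisons, or a channel of a sample other than 2014-P24, were added after seeing the data.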

Additional observations from a re-analysis of the deposited data

Results flagged for a closer look

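The EXGT log2 ratio differed between C3 and C2 by -0.72 at an unadjusted limma p of 0.0198, the smallest p of the 3 differences between comparisons, and it does not pass after adjustment (0.0593 over the 3 differences and 0.256 over all probes). With the loess used here, both arrays of C2 had a higher ratio than both arrays of C3. In the deposited log2 table the C2 ratios were 0.24 with the high scald sample in Cy3 and 1.96 with it in Cy5. Those of C3 were 0.28 and 0.22 in the same order, so the lower C2 array fell within the range of C3. The difference ran from -0.995 to -0.44 when single arrays were left out, with -0.44 when the C2 array with the high scald sample in Cy5 was left out, and its unadjusted p was 0.115 or above under other background corrections, median centring and the deposited table. Slide, low scald sample, plots and harvest year differ between C2 and C3 and cannot be told apart.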

How the results depend on the processing

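The mean EXGT ratio was above 0 under 31 of 31 alternatives, from 0.40 to 1.00 (adjusted p 0.000534 to 1.00). Not all could move it, as Aquantile scaling, filters on detected probes, fits on 6 arrays and other variance models left it at 0.60 by design. Those that left out, averaged, split or blocked arrays could change its size but not its sign, since 6 of 6 arrays were above 0. EXGT was called in 1, loess weighted to probes well above background (0.55, limma adjusted p 0.000534), where 2303 probes were called. The prior degrees of freedom were infinite in that fit, so all probes shared 1 variance and the spread of EXGT itself did not enter. Leaving out a comparison or an array gave 0.40 to 0.76, with 0.40 without C2, which is the same fit as slide 1 alone. Slide 2 alone gave 1.00 from 2 technical arrays. With no replicate block, that is, with the array pairing dropped and the 5 sample levels compared, it was 0.50 (SE 0.47, adjusted p 1.00). Under median centring without loess, the C3 ratio was -0.068 and the difference of C2 and C1 was -0.11, both reversed, the C1 ratio was 0.90 and the difference of C3 and C1 was -0.96, and the cause was not tested. Without single arrays, the ratio ran from 0.40 to 0.62 in C1, 0.73 to 1.28 in C2 and 0.08 to 0.49 in C3. Each end is the value of the 1 array left, which has no spread of its own, so no test is given for it. Against the 1 probe called in the reported fit, 6 separate arrays called 432, arrays with a random block for the comparison 457, arrays with a dye term 126 and an intensity trend 10. Plain subtraction, median centring, kept outlier spots, C1 and C3 averaged, either slide or a slide block, unpaired levels and no moderation called 0, with 1840 to 10487 probes at an unadjusted p under 0.05, and leaving out a comparison or an array called 0 to 1. The difference in level between high and low scald samples was 0.40 to 0.83 (exact permutation p 0.2 to 0.6). Under the other background corrections the mean EXGT ratio was 0.57 to 0.63. The number of peel samples limits its precision.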
